A study of Mus musculus with 8 samples.

Results

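Delta4-Ig was set against control Ig at day 1 of the activation of naive CD4+ T cells, on 2 of the 8 arrays of the series, 1 for each stimulus. Both arrays are titled day 1 and both carry RNA of mouse 1, a C57BL6/NCrl mouse whose age is not given in the sources used here. The cells had been sorted as CD62L+CD44-CD25-DX5-CD4+ from spleen and from inguinal, axillary and brachial lymph nodes. Both cultures received plate-bound anti-CD3e at 10 ug/ml and soluble anti-CD28 at 1 ug/ml. The wells of one also carried plate-bound Delta4-Ig at 5 ug/ml, and those of the other carried control Ig at 5 ug/ml. Delta4-Ig is a recombinant ligand fixed to plastic, and no ligand-bearing cell was part of the culture as labelled. The other 6 arrays are of day 3, where mouse 1 has 2 arrays and mouse 2 has 1 array for each stimulus. Of 25697 probes, 9984 were detected (detection p under 0.01) on at least 1 of the day 1 arrays, and they stood for 6961 named genes.

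Notch receptors are cut when a ligand such as Delta-like 4 on a neighbouring surface pulls on them. The freed intracellular part enters the nucleus, joins the DNA-binding protein RBPJ and Mastermind, and switches on target genes such as Hes1, Dtx1 and Nrarp. In CD4+ T cells the pathway is known to act beside the T cell receptor and CD28 during activation and during the choice of helper fate.

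Values are normalized log2 intensities, and a difference is Delta4-Ig minus control Ig, so that 1 log2 unit is 2-fold. With 1 array for each stimulus no difference could be tested, and no p-value or replicate error exists for day 1. As a yardstick, the 2 pairs of day 3 arrays that the titles call technical replicates of mouse 1 gave a technical SD of the difference for probes of like level. This SD ran from 0.64 log2 units at the dimmest level (mean 6.11) to 0.14 at the brightest (mean 13.56). It holds no spread between mice or between cultures. Where a gene was detected on 1 of the day 1 arrays, the dim side is known only as not well above background, and the fold is given as a lower bound against the lowest detected signal of the dim array or the dim probe's own value, whichever was higher.

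After 1 day, cells on Delta4-Ig carried more mRNA of the Notch targets Trib2 and Dtx1, of the interferon-inducible Isg15 and Gbp5, of the cytokines Il3 and Lif, and of Plac8, Gjb2 and Agrn. They carried less mRNA of Rgs16 and Bcl6, of the activity-induced factor Npas4 and of the chemokines Xcl1, Ccl3 and Ccl4. Among all probes, 116 (1.16%) were at least 2-fold higher and 82 (0.821%) at least 2-fold lower. Between technical arrays, 71 probes (0.742%) of the control Ig pair and 61 (0.623%) of the Delta4-Ig pair differed by 2-fold or more in either direction. No probe of either technical pair differed 4-fold, and their largest differences were 1.61 and 1.53 log2 units. At day 1, by measured values, 14 of 9984 probes were at least 4-fold higher and 1 was at least 4-fold lower. Among the named genes 4-fold higher, Agrn was detected on both arrays. Gjb2, Plac8, Isg15, 1810009J06Rik, Lpar3, Il3, Fhdc1, Lif and Il1r2 were undetected with control Ig. Of these, Gjb2, Plac8, Isg15, Lif and Il1r2 also reached 4-fold by a lower bound.

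Many of the 2-fold differences lay near background. Of the 116 higher probes, 86 were detected only with Delta4-Ig, and of the 82 lower probes, 53 were detected only with control Ig. With the lower bound in place of the measured value, 20 and 5 of these still reached 2-fold. A stricter reading asks for 2-fold and 3 technical SD together. By it 51 probes (0.511%) were higher and 31 (0.31%) lower, against 6 (0.0627%) and 10 (0.102%) in the technical pairs. By 3 technical SD alone, 129 probes (1.29%) were higher and 185 (1.85%) lower, against 40 (0.418%) in the control Ig pair and 78 (0.796%) in the Delta4-Ig pair, the pairs that set the SD. The SD of the day 1 differences was 1.05 to 1.56 times the technical SD over 20 bins of level. Higher probes made up 58.6% of the 2-fold differences here, but 42.6% when arrays were scaled to their 75th percentile in place of quantile normalization, so the balance of higher against lower depends on the scaling.

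**Figure D1:**
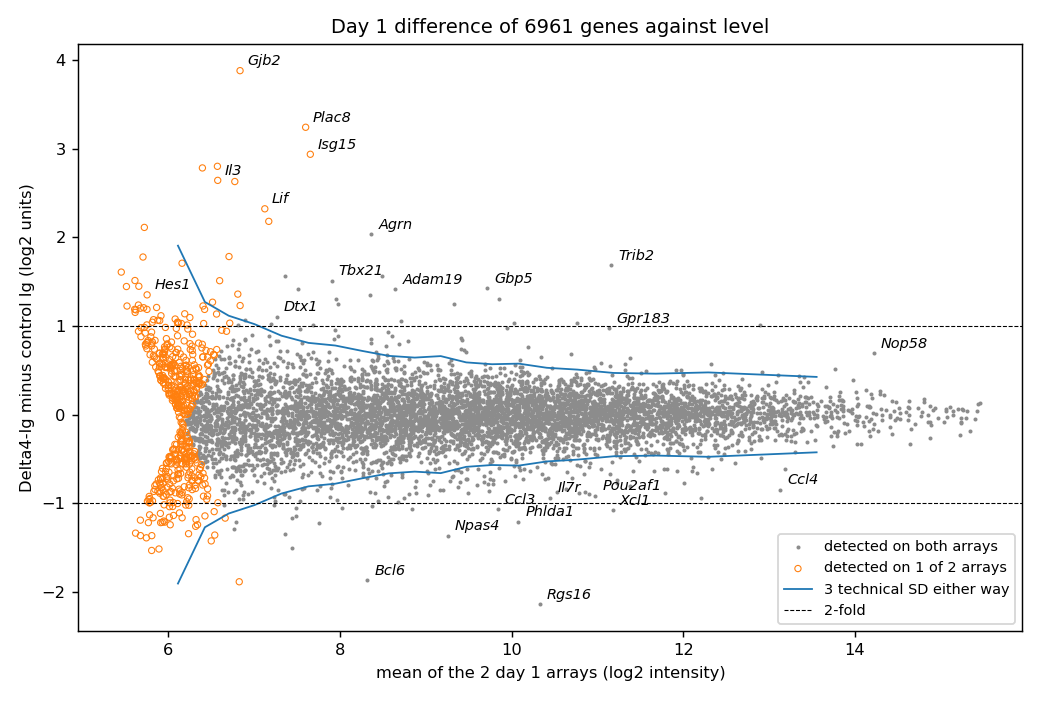
Each point is 1 of 6961 genes, with the mean log2 intensity of the 2 day 1 arrays on the horizontal axis and Delta4-Ig minus control Ig in log2 units on the vertical axis. Orange circles are genes detected on 1 of the arrays, blue lines mark 3 technical SD and dashed lines mark 2-fold. Trib2 at 1.68 and Rgs16 at -2.14 lie far outside the lines among well-measured genes, while most of the 2-fold points at the left are genes detected on 1 array.

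By gene, 72 of 6961 (1.03%) were at least 2-fold higher and 55 (0.79%) at least 2-fold lower. Of these, 22 and 19 were detected on both arrays. A further 14 higher and 4 lower genes had a lower bound of at least 2-fold. By 3 technical SD alone, 80 genes (1.15%) were higher and 142 (2.04%) lower. The median over all 6961 genes was -0.008, and a difference of -0.002 (that of Ccnd3) stood at percentile 50.96. Genes above and below 0 were thus nearly equal in number. The counts of list members above or below 0 given further on stand beside that near-equal share. Leaving out the background correction narrows all differences near background, and then 16 of the 72 and 5 of the 55 genes still differed 2-fold, beside 0 and 2 probes in the technical pairs. The 5 lower ones were Rgs16, Bcl6, Npas4, Phlda1 and Xcl1. The 16 higher ones were Gjb2, Plac8, Isg15, Trib2, Agrn, Gbp5, 1810009J06Rik, Fhdc1, Lpar3, Lif, Il3, Trappc3, Grhl1, Il1r2, Adam19 and Cdk5r1, which leaves out Tbx21, Ifng, Dtx1 and Tnfsf4, at 0.95, 0.61, 0.58 and 0.62 log2 units in that setting.

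Of 15 direct Notch target genes, 10 were measured, and 3 of them were at least 2-fold higher and 0 lower. Trib2, a pseudokinase known as a Notch target in leukaemic T cells, stood at 10.32 with control Ig and at 12 with Delta4-Ig. It was 3.21-fold higher, and its difference of 1.68 was 10.7 technical SD. Dtx1, which encodes the ubiquitin ligase Deltex, stood at 6.71 and 7.81, a difference of 1.10 or 3.72 technical SD. Hes1, the Notch-induced repressor, was not well above background with control Ig (5.08) and was detected at 6.43 with Delta4-Ig, at least 1.15-fold higher. Those 3 genes were the ones past 2-fold, and for Hes1 the bound is small and the measured difference was 2.13 technical SD.

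The remaining measured targets differed little. Nrarp, a feedback inhibitor of Notch, was detected only with Delta4-Ig, at 6.24 against 5.98, at least 1.01-fold higher. Hes6 differed by 0.17, the cyclin genes Ccnd1 and Ccnd3 by 0.15 and -0.00, and Il2ra, the alpha chain of the IL-2 receptor, by 0.05. Myc was at 8.49 with control Ig and 8.12 with Delta4-Ig, and Gata3, the Th2 factor, at 7.67 and 7.28. Their differences of -0.37 and -0.38 were under 3 technical SD. The median over the 10 genes was 0.16, or 0.10 with the bounds in place, beside -0.01 over all genes measured and 0.01 and 0.03 for the same genes in the technical pairs.

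Among 14 measured genes that encode Notch receptors or the proteins that cut, modify or assist them, 3 lay above 0 and 11 below, with a median of -0.20 and none past 3 technical SD. Notch4, the receptor best known from blood vessels, was detected only with Delta4-Ig, at 6.36 against 4.85, at least 1.10-fold higher. The gamma-secretase subunit Aph1a was lower by 0.43 log2 units, the coactivator Maml2 by 0.39 and the ligand gene Dll1, detected only with control Ig, by 0.49. None of these separated from the technical spread.

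Interferon-inducible genes were divided. Of 26 measured, 16 lay above 0 and 10 below, with a median of 0.14 against 0.01 and 0.04 in the technical pairs. Isg15, a ubiquitin-like protein strongly induced by interferon, was at background with control Ig (6.19) and stood at 9.12 with Delta4-Ig, at least 7.42-fold higher. Gbp5, an interferon-inducible GTPase, stood at 9.0 with control Ig and 10.43 with Delta4-Ig, 2.69-fold higher and 7.54 technical SD apart. Ifih1, which encodes the RNA sensor MDA5, was detected at 6.47 on the Delta4-Ig array alone, at least 1.18-fold higher.

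Other members of the same group were lower. Oasl2, a relative of the oligoadenylate synthetases, stood at 8.02 with control Ig and 6.86 with Delta4-Ig, a difference of -1.16 or 3.92 technical SD in size. Oas2, a synthetase of that family, was detected only with control Ig, at 6.40 against 5.24, and was at least 1.23-fold lower. In this group 3 genes were at least 2-fold higher and 2 at least 2-fold lower.

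The promoters of the 3 higher interferon-inducible genes each held the core of the interferon response element, searched on both strands as GAAA, any 2 bases and GAAA again. The promoter windows are those of RefSeq for the build GRCm38.p6, from 250 bases before the start of the gene to 50 after it. The first is shown whole because its 3 overlapping matches stand together, and the other 2 are shown around their match. Each is written 5′ to 3′ on the strand of its gene, and capitals mark the matches. A match to the reverse strand reads TTTC, any 2 bases and TTTC.
Isg15: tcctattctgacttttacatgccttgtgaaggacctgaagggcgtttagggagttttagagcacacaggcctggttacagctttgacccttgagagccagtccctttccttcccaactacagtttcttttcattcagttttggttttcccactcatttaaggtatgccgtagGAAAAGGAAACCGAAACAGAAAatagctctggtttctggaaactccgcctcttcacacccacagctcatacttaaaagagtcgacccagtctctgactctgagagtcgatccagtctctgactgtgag
Gbp5: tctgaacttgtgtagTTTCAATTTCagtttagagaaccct
Ifih1: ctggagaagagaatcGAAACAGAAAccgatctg
The Isg15 window lies on the minus strand at chr4:156200769-156201068, that of Gbp5 on the plus strand at chr3:142496684-142496983, and that of Ifih1 on the minus strand at chr2:62646206-62646505. The Isg15 matches span bases -78 to -57 counted from the start base as 0, the Gbp5 match bases -165 to -156, and the Ifih1 match lies after the start, at bases 32 to 41.

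This motif is present in 3.44% of all 32851 promoters of the table, or 3.99% of its 27025 genes. The shares that follow are of genes. Among the 45 listed interferon-inducible genes, measured at day 1 or not, 20 of the 33 with a promoter (60.6%) held it. Of the genes at least 2-fold higher with Delta4-Ig, 4 of 60 with a promoter (6.67%) held it, beside 2 of 43 (4.65%) of the lower ones and 3.76% of the measured genes. The fourth higher gene was Sec14l1, which was named after its values were seen, and no sequence of it is shown.

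The cytokine genes split in direction. Il3, a haematopoietic growth factor made by activated T cells, was at background with control Ig (5.25) and stood at 7.89 with Delta4-Ig, at least 3.17-fold higher. Lif, a cytokine of the IL-6 family, went from 5.96 to 8.28, at least 4.15-fold higher. A second detected Lif probe, seen on both arrays, differed by 1.20. Ifng, the cytokine of Th1 cells, was at background (6.13) with control Ig and at 7.49 with Delta4-Ig, at least 2.39-fold higher.

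Csf2, which encodes GM-CSF, was barely above background with control Ig (6.29), was undetected on the Delta4-Ig array, and was at least 1.13-fold lower. Lymphotoxin beta, Ltb, stood at 9.93 and 9.06, a difference of -0.88 or 4.48 technical SD in size. Tnfsf11, which encodes RANKL, stood at 9.78 and 9.03, a difference of -0.76. Over 13 measured cytokine genes 6 lay above 0 and 7 below, and 3 lay past 3 technical SD in each direction. The 3 higher genes were Il3, Lif and Ifng. Csf2, with a measured difference of 2.1 technical SD in size, was not among the 3 lower ones. Ltb and Tnfsf11 were named from the list of TNF family genes. Il4, Il10, Il17a and Il21 were detected on neither day 1 array and have no day 1 difference here.

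All 3 measured chemokine genes were lower. Xcl1, lymphotactin, stood at 11.72 with control Ig and 10.64 with Delta4-Ig, a difference of -1.08. Ccl3 stood at 10.37 and 9.30, a difference of -1.06, and Ccl4 at 13.55 and 12.71, a difference of -0.85. Ccl3 and Ccl4 encode the inflammatory chemokines MIP-1 alpha and MIP-1 beta. The 3 differences were 6.89, 5.63 and 5.99 technical SD in size, where 2.04% of genes were at least 3 technical SD lower. These are 3 of 12 chemokine genes on the array, and their median of -1.06 became -0.18 when the undetected ones were counted too.

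Genes of the Th1 fate were also divided. Tbx21, which encodes the Th1 master factor T-bet, stood at 7.15 with control Ig and 8.66 with Delta4-Ig, 2.85-fold higher and 5.82 technical SD apart. Il18r1, the receptor chain through which Th1 cells answer IL-18, was detected only with control Ig (7.22 against 5.86) and was at least 2.16-fold lower. Of the 7 measured genes of the list, 2 were at least 2-fold higher (Tbx21 and Ifng) and 2 at least 2-fold lower (Il18r1 and Ccl3). For Th2 genes, Nfil3, a leucine zipper factor, was higher by 0.85 or 3.54 technical SD, while Gata3, Stat6 and Ccr8 were lower by 0.38, 0.27 and 0.38, all within 3 technical SD.

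Several of the largest differences belonged to genes of other kinds. Plac8, a small cysteine-rich protein, was at background with control Ig (5.98) and stood at 9.22 with Delta4-Ig, at least 7.94-fold higher. Gjb2, the gap junction protein connexin 26, was at 4.89 and 8.77, at least 5.83-fold higher, and its second detected probe had the same sign. Il1r2, the decoy receptor of IL-1, was at 6.08 and 8.26, at least 4.08-fold higher. Lpar3, a receptor of lysophosphatidic acid, was at 5.00 and 7.79, at least 2.94-fold higher, with both of its detected probes agreeing in sign.

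Further bounds were those of 1810009J06Rik at 3.34-fold, the T cell adaptor Lax1 at 2.58-fold and the casein kinase subunit Csnk2a1 at 2.33-fold. Tnfsf4, the OX40 ligand, reached 7.35 on the Delta4-Ig array alone, at least 2.18-fold higher. The formin-like gene Fhdc1 was measured at 5.46 and 8.09, at least 3.62-fold higher.

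Among genes detected on both arrays, Agrn was the highest by difference. Agrin is a heparan sulphate proteoglycan, and its mRNA stood at 7.35 with control Ig and 9.38 with Delta4-Ig, 4.10-fold higher and 8.51 technical SD apart. Adam19, a membrane metalloprotease, stood at 7.93 and 9.35, 2.67-fold higher. Pank3, a kinase of coenzyme A synthesis, and Grhl1, a grainyhead-like transcription factor, each differed by 1.56. Nkg7, a protein of cytotoxic granules, stood at 7.67 and 9.02, a difference of 1.35.

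Trappc3, a subunit of the TRAPP vesicle tethering complexes, was 2.46-fold higher, and all 4 of its detected probes were higher. The serine kinase gene Pim2 was 2.37-fold higher, with 3 of 3 probes higher. Prag1 differed by 1.42, Syp, the vesicle protein synaptophysin, by 1.3, and Cdk5r1, the activator p35 of the kinase Cdk5, by 1.24. Emp1, a membrane protein gene, stood at 6.36 and 7.42, a difference of 1.06. Nt5e, which encodes CD73, the enzyme that makes adenosine at the cell surface, was 2.04-fold higher, with both probes higher.

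Rgs16, a brake on G protein signalling, had the largest lower difference, from 11.40 with control Ig to 9.26 with Delta4-Ig. It was 4.40-fold lower and 12.1 technical SD apart. Bcl6, the repressor that directs follicular helper cells, stood at 9.25 and 7.38, 3.64-fold lower and 7.80 technical SD apart. Npas4, a transcription factor induced by cell activity, stood at 9.94 and 8.57, 2.58-fold lower. Phlda1, a pleckstrin homology-like protein gene induced by T cell activation, stood at 10.68 and 9.47, 2.31-fold lower.

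Further genes detected on both arrays and at least 2-fold lower were Itga3, the integrin chain alpha 3, by 1.34 log2 units, Klrd1, the NK receptor CD94, by 1.29, and Crabp2, a retinoic acid binding protein, by 1.23. Hivep3 was lower by 1.21, the zinc finger repressor Zeb2 by 1.14, Pigt, a subunit of the GPI transamidase, by 1.06, and Dapl1, a gene high in naive T cells, by 1.05. Their sizes ran from 3.24 technical SD for Hivep3 to 4.94 for Pigt. Wars2, the mitochondrial tryptophan tRNA synthetase, was lower by 1.51 on its brighter probe. Of its 2 detected probes only 1 was lower, and their mean difference was -0.45.

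Of the genes detected only with control Ig, 4 had a bound of at least 2-fold. Dctn1, a dynactin subunit, was at least 3.17-fold lower (7.77 against 5.88). Niban2 was at least 2.20-fold lower, Il18r1 is given above, and Grn, which encodes progranulin, was at least 2.15-fold lower. Eno2, Vipr1, Tubb6, Vat1, Xdh, Rpusd1, Dnase1l1 and Rnft1 had bounds between 1.75-fold (Dnase1l1) and 1.97-fold (Eno2). One of the 2 detected probes of Vipr1 did not go the same way.

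**Figure D2:**
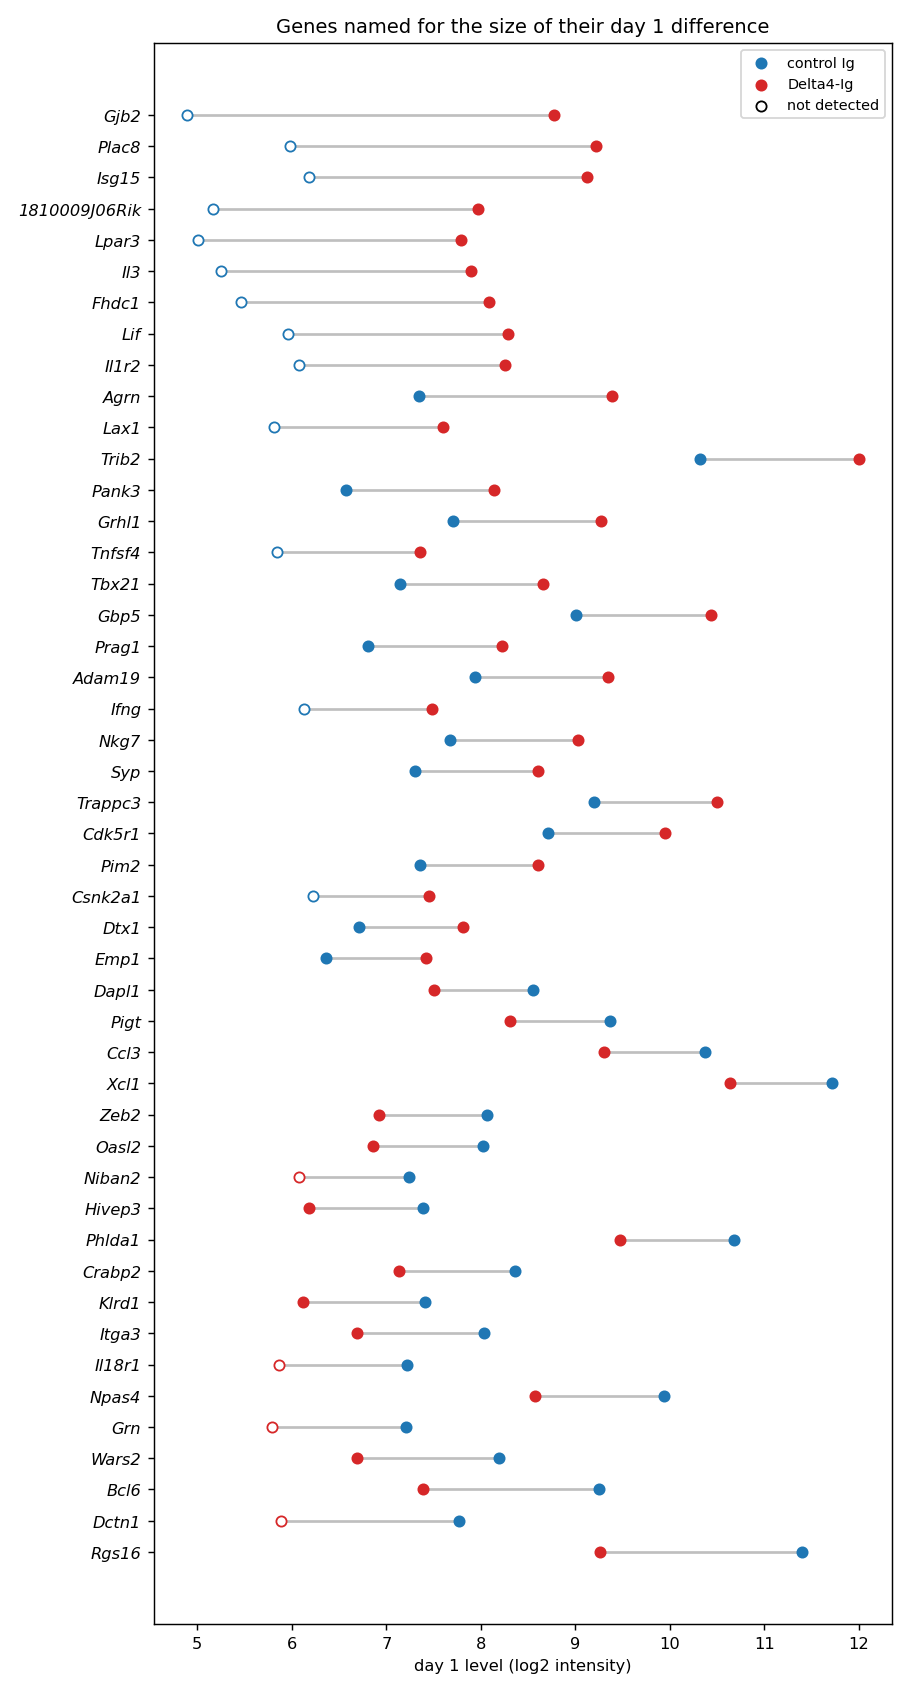
Day 1 log2 intensity of 47 genes with control Ig (blue) and Delta4-Ig (red), ordered by their difference, with 1 array for each point and white circles where the probe was not detected. The genes are the 15 highest and 15 lowest differences among those detected on both arrays and the named genes detected on 1 array with a bound of at least 2-fold. Plac8, Isg15 and Gjb2 start from undetected levels with control Ig, while Trib2 and Rgs16 differ between well-detected levels.

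Of 16 measured immediate early and NFAT-induced transcription factors 13 lay below 0, with a median of -0.21 against -0.03 and 0.00 in the technical pairs. Besides Npas4, the AP-1 gene Fosb stood at 7.37 and 6.48, and Ier3 was detected only with control Ig and was at least 1.53-fold lower. Batf, an AP-1 factor of effector T cells, went the other way, at 7.5 and 8.36, a difference of 0.85 or 3.29 technical SD. Irf4, named after its values were seen, was lower by 0.61. Irf4 and Npas4 were the 2 genes of this group at least 3 technical SD lower.

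Of 12 feedback genes, mostly of MAP kinase, RAS, G protein and NF-kB signalling, 9 lay below 0, with a median of -0.26. Besides Rgs16, the phosphatase gene Dusp4 stood at 9.66 and 8.91, a difference of -0.75 or 3.41 technical SD in size. The ubiquitin editor Tnfaip3, known as A20, stood at 10.12 and 9.39, a difference of -0.73. Dusp6, the phosphatase of ERK, was lower by 0.45, with 3 of 3 probes lower. The median of 19 genes of the T cell receptor complex and its proximal kinases was nearer to 0, at -0.10, and none passed 3 technical SD.

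Of 17 activation surface genes 12 lay below 0. Il7r, the receptor chain of IL-7, stood at 10.92 and 9.98, a difference of -0.94 or 5.33 technical SD in size. It is also a member of the list of naive and quiescent T cell genes, where 12 of 16 measured genes lay below 0. Cd44, the adhesion receptor of activated T cells, stood at 9.44 and 8.65, a difference of -0.79. Ctla4, the inhibitory receptor of activated T cells, stood at 11.03 and 11.61, a difference of 0.57 or 3.65 technical SD. Of 15 TNF family genes 12 lay below 0, with a median of -0.30, and Tnfsf4 was the only member past 2-fold.

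Follicular helper genes held members far apart from each other. Besides Bcl6, the B cell and T cell coactivator Pou2af1 stood at 11.43 and 10.52, a difference of -0.91 or 5.84 technical SD in size. Gpr183, the oxysterol receptor EBI2 that Bcl6 is known to repress, stood at 10.65 and 11.63, a difference of 0.98 or 6.23 technical SD. Cxcr5, the follicular homing receptor, was detected only with Delta4-Ig at 6.17, with no bound above 1. The median over 11 genes was 0.21, became 0.00 with the bounds in place and -0.16 over genes detected on both arrays, so the group has no settled direction.

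Most measured genes of cell division lay above 0, by small steps, where all measured genes were nearly equally divided above and below 0. Of 32 measured genes of DNA replication and S phase 28 lay above 0, with a median of 0.21 against -0.02 and -0.11 in the technical pairs. None was 2-fold different and none passed 3 technical SD. The cyclin E genes had the largest steps, Ccne2 at 6.73 and 7.61 and Ccne1 at 6.47 and 7.32, followed by Rrm2, a subunit of ribonucleotide reductase, at 0.50. Of 21 genes of mitosis and the spindle 18 lay above 0, with a median of 0.34 against 0.04 and 0.00. Mad2l1, of the spindle checkpoint, stood at 10.02 and 10.67, a difference of 0.65 or 3.71 technical SD, and Kif23, Cdca8 and Birc5 were at 0.69, 0.65 and 0.61. Cenpa, the centromeric histone, named after its values were seen, stood the other way, at 10.93 and 10.42, a difference of -0.51 or -3.0 technical SD. Mad2l1 and Cenpa were the 2 genes of the list past 3 technical SD, 1 in each direction. Without background correction the mitosis median was 0.17. Birc5 encodes survivin, which serves both mitosis and survival.

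All 8 measured amino acid transporter genes lay below 0, with a median of -0.34 and differences from -0.01 to -0.52, and none passed 3 technical SD. The largest were those of Slc1a5 and Slc6a6, at -0.52 and -0.41, and for Slc1a5 1 of 2 probes went the same way. Of 11 genes of the amino acid stress response 9 lay above 0 (median 0.20), among them Phgdh, the first enzyme of serine synthesis, at 0.62, while Cebpg was at -0.70. Here the technical pairs themselves had medians of -0.07 and 0.12. Cholesterol synthesis had a median of 0.18 with 13 of 18 genes above 0, oxidative phosphorylation 0.14 with 21 of 30, and proteasome subunits 0.10 with 17 of 24.

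Glycolysis had a median of 0.07, with Ldha, lactate dehydrogenase A, at 0.39 and the glucose transporter Slc2a3 at -0.48. Cytosolic ribosomal proteins had a median of 0.04, and ribosome biogenesis one of 0.04. Nop58, a core protein of the small nucleolar ribonucleoproteins, stood at 13.88 and 14.57, a difference of 0.69 or 4.88 technical SD. Survival genes of the BCL2 family and the inhibitors of apoptosis had a median of 0.00 over 10 genes, with 5 above and 5 below 0, and none passed 3 technical SD. Bcl2l1, which encodes BCL-XL, was at 6.26 and 6.65, with 1 of 2 probes higher, and pro-apoptotic genes had a median of -0.09.

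**Figure D3:**
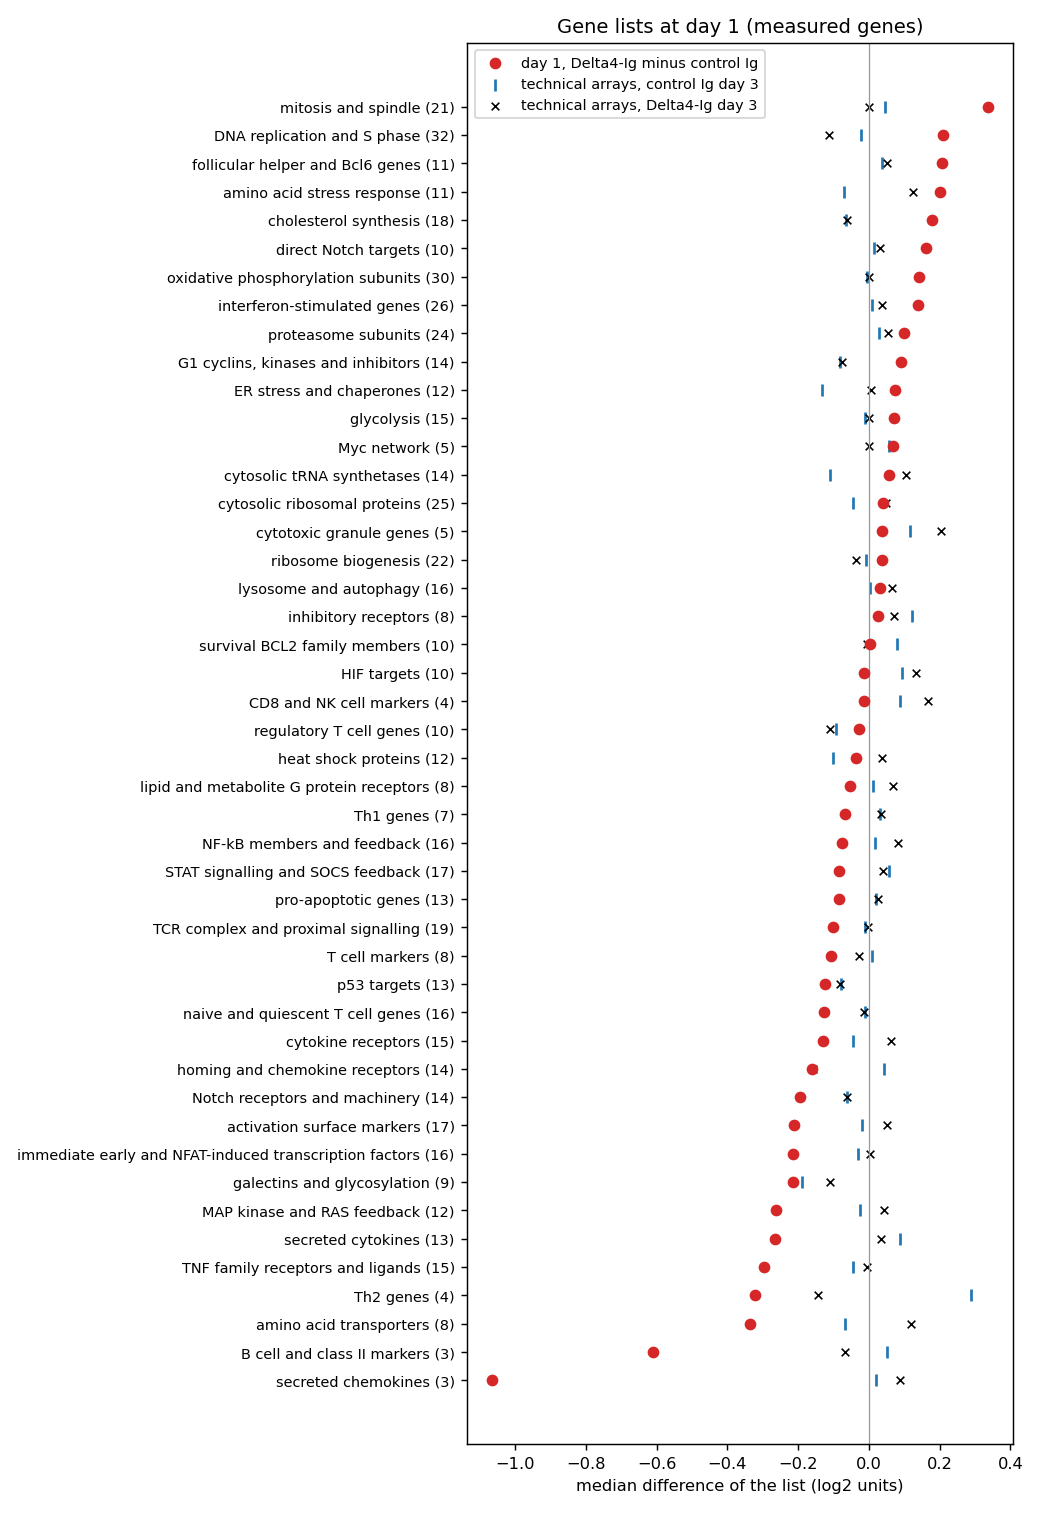
Median difference in log2 units of the measured genes of 46 lists, Delta4-Ig minus control Ig at day 1 (red), with the same genes in the control Ig (blue bars) and Delta4-Ig (black crosses) technical pairs of day 3, and the number of measured genes in brackets. Mitosis (0.34) and S phase (0.21) stand at the top and the 3 detected chemokines (-1.06) at the bottom, while most lists lie within 0.2 of 0 and the technical medians reach 0.29 for the 4 Th2 genes.

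Of 10 regulatory T cell genes 5 lay above 0 and 5 below. Past 3 technical SD, 3 were higher, namely Nt5e at 1.03, Ctla4 at 0.57 and Gpr83 at 0.51, and 1 was lower, the actin-capping gene Capg at -0.65. Gpr83, a G protein receptor gene, was named after its values were seen. Ikzf4 and Nrp1 were at -0.70 and -0.60, within 3 technical SD. Among STAT and SOCS genes, Pim2 and Socs2 were higher by 1.24 and 0.77, while the kinase gene Jak2 was lower by 0.61 or 3.96 technical SD. Among HIF targets, Egln3, the oxygen-sensing hydroxylase PHD3, was detected only with Delta4-Ig, at least 1.72-fold higher, and Ndrg1 was lower by 0.83. Among receptors of lipids, the prostaglandin E2 receptor Ptger2 was lower by 0.80 and Gpr174, a lysophosphatidylserine receptor, by 0.54, while Lpar3 is given above.

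Markers of T cells were well detected, Cd4 and the CD3 chains among them. All 8 T cell markers with a probe were detected on both arrays, at levels of 8.0 to 13.42 with control Ig and 8.18 to 13.22 with Delta4-Ig. Of 11 CD8 and NK cell markers 4 were detected on both arrays (Cd8b1, Klrd1, Nkg7 and Prf1), of which Klrd1 was lower and Nkg7 higher. The log2 of the summed intensity of all 11, undetected ones included, was 11.58 on each array. The sums that follow also include undetected markers at background. Of 13 B cell and class II markers 3 were detected with control Ig and 2 with Delta4-Ig, with a log2 sum of 9.89 and 9.67. Of 13 myeloid and dendritic cell markers 1, Siglech, was detected (log2 sum 9.05 and 8.82). None of 6 erythroid and platelet markers was, with a log2 sum of 7.62 and 7.76 from background alone. The part of these cells in the differences was not tested. In bulk RNA, fewer cells of a type and less RNA per cell cannot be told apart. The control Ig array was the dimmest of the 8 before normalization, with a 75th percentile of 321.8 against 399.5 on the Delta4-Ig array and 479.7 on the brightest, and detected 9398 probes against 9673. The part of this difference in brightness in the genes detected only with Delta4-Ig was not tested.

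The core of the RBPJ binding motif, TGGGAA on either strand, is present in 25.6% of all promoters of the table, or 28.3% of its genes. It was present in 13 of 60 higher genes with a promoter (21.7%), 13 of 43 lower genes (30.2%) and 25.9% of all measured genes with a promoter, and it shares letters with no match of the interferon motif shown above. Of the 15 listed Notch target genes, 10 had a promoter window and 2 of these held it. That count covers the whole list, measured at day 1 or not, and so is not one of the 10 measured targets. The windows of Isg15 and Gbp5 also held the core, with 2 matches each, which are not marked here. Windows of some other higher genes with large differences that hold the core are shown around it. The core, or its reverse TTCCCA, is in capitals and each is written 5′ to 3′ on the strand of its gene.
Lpar3: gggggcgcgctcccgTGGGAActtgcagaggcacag
Il3: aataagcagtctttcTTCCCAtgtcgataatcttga
Lif: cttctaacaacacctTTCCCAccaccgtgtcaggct
Tbx21: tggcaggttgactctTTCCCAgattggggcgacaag
Plac8: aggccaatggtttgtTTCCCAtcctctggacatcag
Their windows in GRCm38.p6 are chr3:146220711-146221010 for Lpar3 on the plus strand, chr11:54267230-54267529 for Il3 on the minus strand and chr11:4257318-4257617 for Lif on the plus strand. Those of Tbx21 and Plac8 are chr11:97115282-97115581 and chr5:100563047-100563346, both on the minus strand. The Lpar3 core begins 80 bases before the start of the gene and the Plac8 core 25 bases after it. A match of these letters is not evidence of binding.

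Day 3 gives the same stimuli in 2 mice, with mouse 1 the animal of day 1. Among all 6961 genes, 175 (2.51%) were at least 2-fold higher and 167 (2.4%) lower in mouse 1 at day 3, and 510 (7.33%) and 656 (9.42%) in mouse 2. Of the same 6961 genes, 101 were at least 2-fold higher in both mice and 57 at least 2-fold lower in both. Of the 22 genes higher at day 1 and detected on both arrays, 7 were at least 2-fold higher at day 3 in mouse 1, 11 in mouse 2 and 6 in both, while 0 and 3 were lower. Of the 19 lower genes, 6 and 5 were lower at day 3 and 3 were lower in both mice, while 0 and 2 were higher. Of the 14 higher genes with a day 1 bound of 2-fold, 10 were higher in mouse 1 and 6 in mouse 2, 5 of them in both, while 1 and 3 were lower. Of the 4 lower genes of that kind, 1 was lower in mouse 1 and 0 in mouse 2, where 3 were higher. These counts use measured differences, some of them against levels at background. The day 3 arrays are not independent of day 1 for mouse 1, and no test was made.

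Some differences were larger at day 3. Trib2 differed by 4.83 in mouse 1 and 4.76 in mouse 2. It stood at 7.32 to 7.81 on the 3 control Ig arrays of day 3, below its day 1 level of 10.32, and at 12.09 to 12.57 with Delta4-Ig. Plac8 differed by 4.33 and 5.11 and Adam19 by 2.93 and 3.41. Emp1, detected on no control Ig array of day 3, was at least 12.7-fold higher in mouse 1 and 86.9-fold in mouse 2. Lpar3, also undetected on those arrays, was at least 2.90-fold and 24.1-fold higher. Dapl1, lower by 1.05 at day 1, was undetected with Delta4-Ig in mouse 1 at day 3, at least 12.2-fold lower, and differed by -4.45 in mouse 2. Oasl2 was likewise undetected with Delta4-Ig in mouse 1, at least 4.90-fold lower, and differed by -4.23 in mouse 2. Cd44 and Tnfsf11 were also lower in both mice, by 2.31 and 2.61 and by 2.22 and 3.32. For the Notch targets Dtx1, Hes1 and Nrarp, the 3 control Ig arrays of day 3 showed no detection and all 3 Delta4-Ig arrays did.

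Other genes had day 3 values of another sign or size. Isg15 differed by -0.12 and -1.15, Gbp5 by -0.69 and -0.33 and Ifih1 by -0.75 and -1.48, so that all 3 lay below 0. Tbx21 likewise stood lower with Delta4-Ig, by 0.81 and 1.06. Il3, Lif and Ifng were higher in mouse 1, by 2.27, 1.69 and 2.61, and lower in mouse 2, by 1.73, 0.35 and 0.61. Bcl6 and Rgs16 kept their day 1 direction in both mice. Bcl6 was lower by 1.39 in mouse 1, and in mouse 2, where it was undetected with Delta4-Ig, at least 1.27-fold lower. Rgs16 was lower by 0.34 and 1.37. Ccl3 and Ccl4 differed by 0.65 and 0.16 and by 0.15 and 0.80, and Xcl1 by -1.63 in mouse 1. In mouse 2 Xcl1 was undetected with control Ig and at least 1.81-fold higher. The medians of S phase genes were -0.04 and -0.52 at day 3 and those of mitosis genes -0.03 and -0.23, beside 0.21 and 0.34 at day 1.

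**Figure D4:**
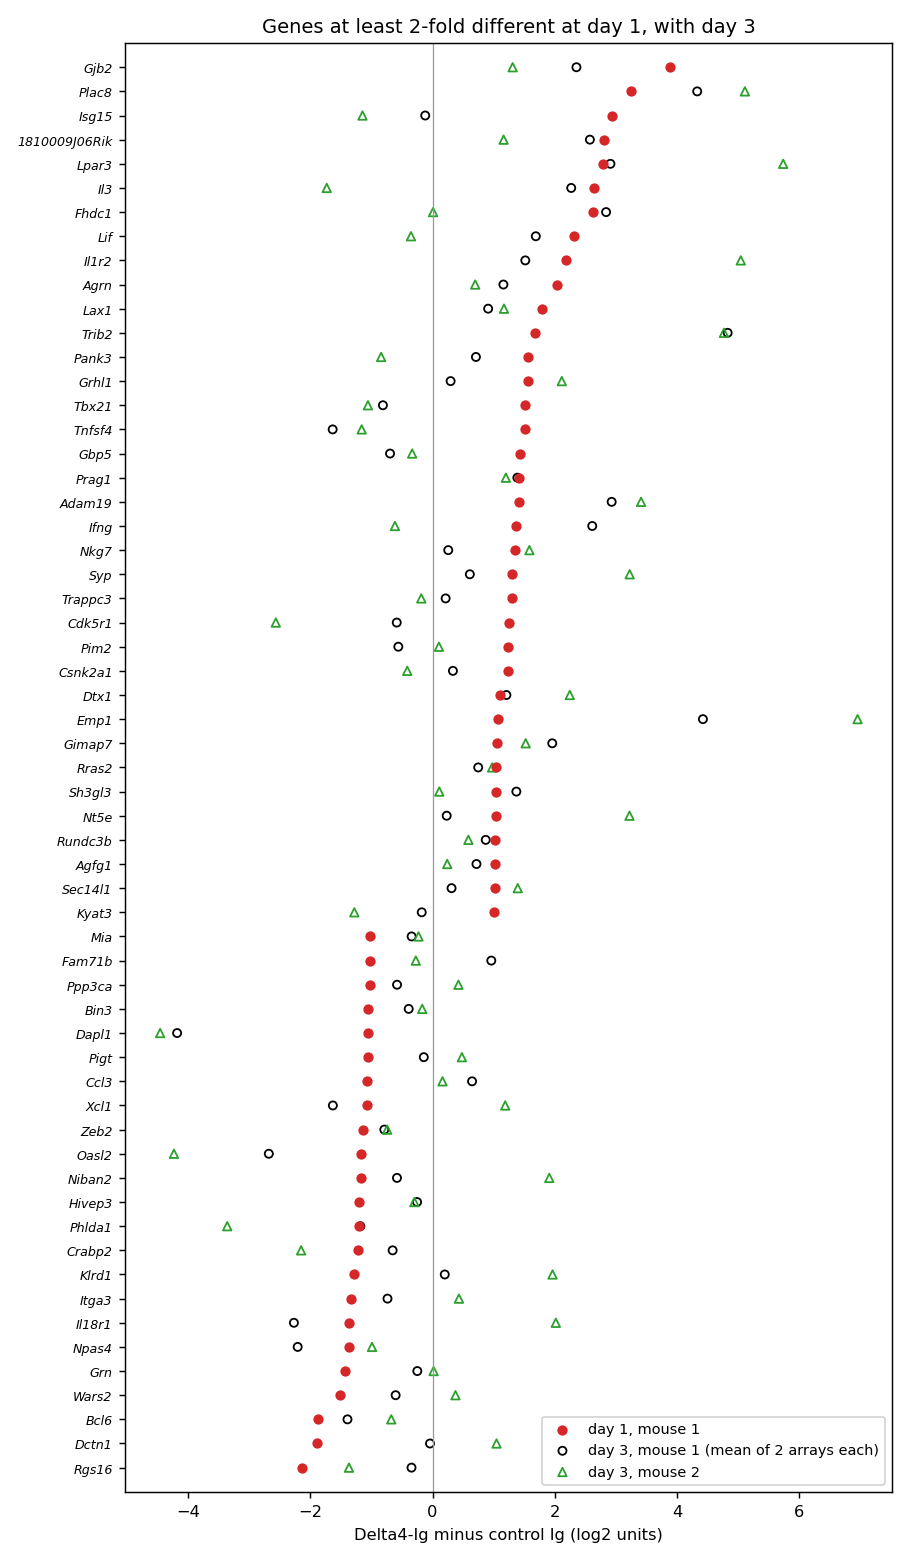
Delta4-Ig minus control Ig in log2 units for the 59 genes that were detected on both day 1 arrays and at least 2-fold different, or that had a bound of at least 2-fold. Red points are day 1, open circles day 3 of mouse 1 (means of 2 arrays for each stimulus) and green triangles day 3 of mouse 2. Plac8, Trib2, Adam19 and Emp1 lie above 0 at each point and Dapl1 and Oasl2 below it, while Isg15, Tbx21 and Tnfsf4 change sign.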

How the data were processed

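Per the labels, biotin-labelled RNA of 8 samples was hybridised to Illumina mouse arrays. The authors deposited linear intensity values and a detection p-value for each probe and array, neither background-subtracted nor normalized. They also deposited log2 values whose scale, centring and direction are not stated. GenomeStudio and limma are named per the submitters' processing notes, without versions. The deposited log2 values differed by at most 0.0417 from neqc (limma 3.58.1, R 4.3.3, offset 16) of the intensities, and each column had a median of 5.28. They were therefore taken to be single-array log2 intensities after background correction and quantile normalization, with no centring of genes, and were used as deposited. All columns were mapped to a sample. Intensity and detection columns were mapped by the sample description and title, and log2 columns by the sample identifier and title.

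Probes were kept with a detection p under 0.01 on at least 1 of the 2 day 1 arrays. Of 25697 probes, 23978 had 1 gene symbol, 0 had several and 1719 had none in the annotation table. A gene was represented by its kept probe with the highest day 1 mean, and 1784 genes had several. The technical SD was taken in 20 bins of level over both technical pairs of day 3, whose differences had an SD of 0.271 and 0.283. The titles do not say at which step the technical replicates were split. All 8 arrays share 1 chip. The number of arrays limits the precision, and no difference was tested.

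Named genes were the 15 highest and lowest differences among genes detected on both arrays, the 12 largest bounds each way, all measured Notch targets, and from every other list the members past 2-fold and the 4 of largest size. The members and the 49 lists were chosen with earlier results of these data known. In a simulation of the day 1 comparison over 9984 probes with 200 well-detected probes changed 4-fold, the rule of 2-fold and 3 technical SD found 200 of them and 21 unchanged probes. The changed probes lay well above background on both arrays, and the noise was drawn from the technical SD itself. Their recovery was therefore set by the design, and it says nothing of probes near background or of spread between cultures. Tables were handled with pandas 2.3.3. Alternatives were the background correction, offset, scaling, detection filter, choice of probe and each technical pair alone.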

Additional observations from a re-analysis of the deposited data

Results flagged for a closer look

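Only the genes named by the rule above were searched for a change of direction between the days, not all measured genes. Among all 6961 genes, 80 (1.15%) were at least 3 technical SD higher at day 1 and 142 (2.04%) lower. In 4 named genes the day 1 difference was at least 3 technical SD, with at least 2-fold the other way in both mice at day 3. The thresholds were chosen after the values had been seen, and the difference between the days was not tested. Il7r, the IL-7 receptor chain, was at -0.939 log2 units at day 1 and at 1.63 and 1.47 at day 3. Ndrg1, a stress- and hypoxia-induced gene, was at -0.828 at day 1 and at 2.50 and 3.84 at day 3. Tsc22d3, the glucocorticoid-induced leucine zipper, was at -0.76 at day 1 and at 1.29 and 1.91 at day 3. Tnfsf4, the OX40 ligand, was at 1.51 at day 1, where it was not detected with control Ig, and at -1.63 and -1.16 at day 3.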

How the results depend on the processing

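Probes at least 2-fold different numbered 116 higher and 82 lower, with an SD of 0.365 over all differences. Without background correction they were 18 and 6 (SD 0.22), and with an offset of 50 they were 41 and 17 (SD 0.297). The technical pairs then also held fewer such probes, 0 and 2 without background correction and 5 and 6 with the offset. Scaling to the 75th percentile gave 75 higher and 101 lower. Probes detected on both arrays gave 30 and 29 (SD 0.295), by fewer probes. A detection p under 0.05 gave an SD of 0.396 and no filter one of 0.323. Higher probes made up 58.6% of those called, 75% without background correction, 70.7% with the offset and 42.6% with 75th percentile scaling. With 1 technical pair alone as yardstick, 50 and 30 or 53 and 34 probes passed both criteria, against 51 and 31. Of the values of single genes and lists that were kept, 566 stayed within the technical spread, 127 moved further and 1 reversed from a value beyond its technical median. That was the median of follicular helper genes, which was 0.206 and became -0.159 for genes detected on both arrays. Single-gene values within the spread were kept for the background, offset and scaling settings only, so 566 is not a count over all settings. A gene could be labelled reversed only if it was at least 2-fold different at first. In all, 9 of 46 list medians changed sign under some setting. The other 8 lay within 0.041 of 0 at first, and the widest ranges among them were -0.028 to 0.53 for CD8 and NK cell markers and -0.102 to 0.237 for regulatory T cell genes. The chemokine median ran from -1.066 to -0.178. The S phase median stayed between 0.198 and 0.282 and the mitosis median between 0.173 and 0.339. No paired analysis was possible because day 1 holds 1 sample for each stimulus. Signal near background limits every gene detected on 1 array.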
